A study of Mus musculus with 2 samples.

Results

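Cytotoxic lymphocyte effector genes encode the proteins with which natural killer (NK) cells, innate lymphoid cells and T cells kill or signal to their targets. The 9 genes described here were chosen by symbol from the 32285 genes of the deposited tables: Gzma, Gzmb and Gzmk (granzymes A, B and K), Prf1 (perforin), Nkg7, Ifng (interferon gamma), Fasl (Fas ligand), Klrk1 (the receptor NKG2D) and Tnfsf10 (TRAIL). All 9 symbols occurred, each in 1 row. Non-parenchymal liver cells (those that are not hepatocytes) had been profiled by droplet single-cell RNA sequencing. Both groups were mice that received carbon tetrachloride (CCl4), a hepatotoxin used to cause liver fibrosis, by the intraperitoneal route over 8 weeks. They differed in genotype, with 1 library from Mfap2+/+ (WT) and 1 from Mfap2-/- (KO) mice. Mfap2 encodes a glycoprotein of extracellular microfibrils, and both libraries came from treated animals, so all values below are from injured liver.

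Granule-mediated killing works through perforin, which opens a path into the target cell, and granzymes, serine proteases that then cleave proteins inside it. Fas ligand and TRAIL bind death receptors on the target, interferon gamma activates macrophages and other cells, and NKG2D recognises stress-induced ligands. The liver is rich in NK cells and in tissue-resident type 1 innate lymphoid cells (ILC1), and in mice hepatic NK cells and interferon gamma are known to act on activated stellate cells, the main source of fibrous matrix.

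The labels do not say how many animals each library holds, so genotype, animal and library cannot be told apart. No test between genotypes and no p-value can be given, and all intervals below are at 95% and cover counting error only. The WT and KO libraries held 11783 and 12872 cell barcodes, 82499307 and 118226367 unique molecular identifiers (UMIs, tags that each mark 1 RNA molecule) and medians of 4685 and 6511 UMIs per barcode. They shared 40 barcode sequences, 31 of them among the cells kept, 10336 and 11428. Mfap2 itself had 257 UMIs in the WT library and 4 in the KO library, 170 and 1 of them in mesenchymal cells, which goes with the labels.

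Cell classes were rebuilt from clusters made without the 9 genes and are called "like" a type from marker genes. NK-like cells numbered 99 in the WT and 70 in the KO library, ILC1-like cells 587 and 352, CD8 T-like cells 318 and 428, CD4 T-like cells 149 and 308, and gamma-delta T-like cells 52 and 63. A UMI of Eomes, a factor that marks NK cells, was found in 49 of 99 WT and 42 of 70 KO NK-like cells but in 0.681% and 2.56% of ILC1-like cells, and Cd200r1, an ILC1 marker, in 5.05% and 5.71% against 43.8% and 55.7%. Cd8b1 was found in 58.8% and 58.6% of CD8 T-like cells and Trdc in 73.1% and 71.4% of gamma-delta T-like cells. Cd4 was found in only 24.8% and 39.3% of CD4 T-like cells, which were named from further markers such as Foxp3, found in 36.2% and 24.7%. Fewer cells of a type and less RNA per cell cannot be told apart in the total of a gene, so levels are given as CPM, the UMIs of a gene over all UMIs of the class on the counts-per-million scale.

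Most UMIs of 8 of the 9 genes lay in lymphocytes. The lymphocyte classes, natural killer T (NKT)-like and cycling cells included, held 89.5% of the Prf1 UMIs in the WT and 83.0% in the KO library. For Gzma these shares were 87.1% and 86.8%, and for Gzmb 89.1% and 87.4%. Gzmk was lower, at 71.4% and 65.1%. The exception was Tnfsf10, with 44.4% and 31.3% in lymphocytes and 32.9% and 46.1% in endothelial-like cells. NK-like cells held 36.5% and 24.1% of all Gzma UMIs and CD8 T-like cells 11.7% and 28.9%, so the class with the larger share differed between the libraries. ILC1-like cells held 43.5% and 35.9% of all Gzmb UMIs, and CD8 T-like cells held 39.0% and 43.3% of all Gzmk UMIs.

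**Figure D1:**
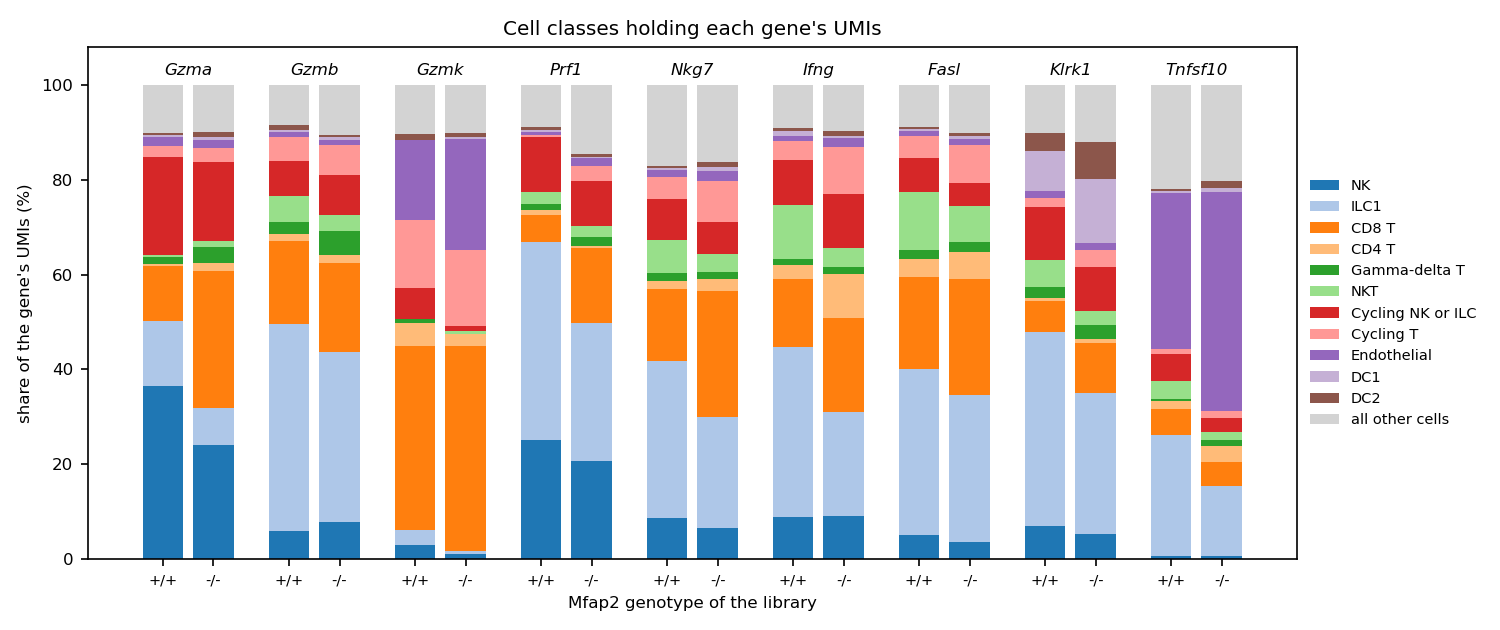
Share of each gene's UMIs (vertical axis, percent) held by each cell class in the Mfap2+/+ and Mfap2-/- libraries (paired bars), over all cells kept. Gzma has its largest WT block in NK-like cells (36.5%), Gzmb in ILC1-like cells (43.5%), Gzmk in CD8 T-like cells (39.0%) and Tnfsf10 in endothelial-like cells (32.9%).

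The question of the design is which genes differed between the Mfap2 genotypes in injured liver. Gzmb and Nkg7 were lower in the KO library in all 5 lymphocyte classes, although in gamma-delta T-like cells both turned higher when no doublets were removed. No effector gene was higher in all 5. Among the 4540 genes that had 20 UMIs or more, WT and KO summed, in every class, 11.5% had ratios below 0 in all 5 classes and 21.6% above 0. Of the 9 effector genes 6 met that count and 2 of these were below 0 throughout. All ratios are log2 of KO over WT CPM with 1 count added to each sum, and a 2-fold difference is a value beyond 1 or -1.

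A 2-fold difference was reached by few of the genes. In NK-like cells it was reached by 0 of the 7 genes with 20 UMIs, where 4.92% of all genes were higher and 2.13% lower by 2-fold (7.05% in either direction). With no doublets removed Gzmb and Gzma passed 2-fold there, at -1.34 and -1.02. In ILC1-like cells 1 of 8 genes, Gzmb, was lower and 0 higher, against 1.55% lower, 3.76% higher and 5.31% either way over all genes. In CD8 T-like cells 1 of 9, again Gzmb, was lower and 0 higher, against 1.63% lower, 4.01% higher and 5.64% either way. Gzmb was thus the gene past 2-fold in both of the largest cytotoxic classes. In CD4 T-like cells 2 of 7, Gzmb and Nkg7, were lower and 0 higher, against 2.98% lower, 4.7% higher and 7.68% either way. In gamma-delta T-like cells 1 of 8, Tnfsf10, was higher and 0 lower, against 6.12% higher, 2.99% lower and 9.11% either way. With so few genes these counts describe the list and set it apart from nothing.

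The median ratio over all 9 genes was -0.16 against 0.12 over the 6244 genes with 20 UMIs in NK-like cells. It was -0.44 against 0.16 over the 10572 genes in ILC1-like, -0.23 against 0.08 over the 10111 genes in CD8 T-like, -0.49 against 0.02 over the 8423 genes in CD4 T-like and 0.07 against 0.10 over the 4784 genes in gamma-delta T-like cells. In ILC1-like cells the counting interval lay below 0 for 5 genes (Gzma, Gzmb, Prf1, Nkg7 and Ifng; 9.96% of all genes) and above 0 for 3 (Fasl, Klrk1 and Tnfsf10; 24.3%). Scaling by the median of ratios moved all genes of these cells down by 0.15. The lower bounds for Klrk1 and Tnfsf10, 0.12 and 0.02, lay under that shift, so only Fasl of the 3 kept its interval above 0. In NK-like cells 3 intervals lay below 0 (Gzma, Gzmb and Nkg7; 6.28%) and 0 above (13.9%). In CD8 T-like cells 3 lay below (Gzmb, Nkg7 and Ifng; 9.6%) and 1 above (Gzma; 18.5%). Of the CD4 T-like genes with 20 UMIs, Gzmb and Nkg7 lay below (7.82% of all genes). In gamma-delta T-like cells Gzmb, Nkg7 and Ifng lay below (6.86%) and Gzma and Tnfsf10 above (12.9%).

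**Figure D2:**
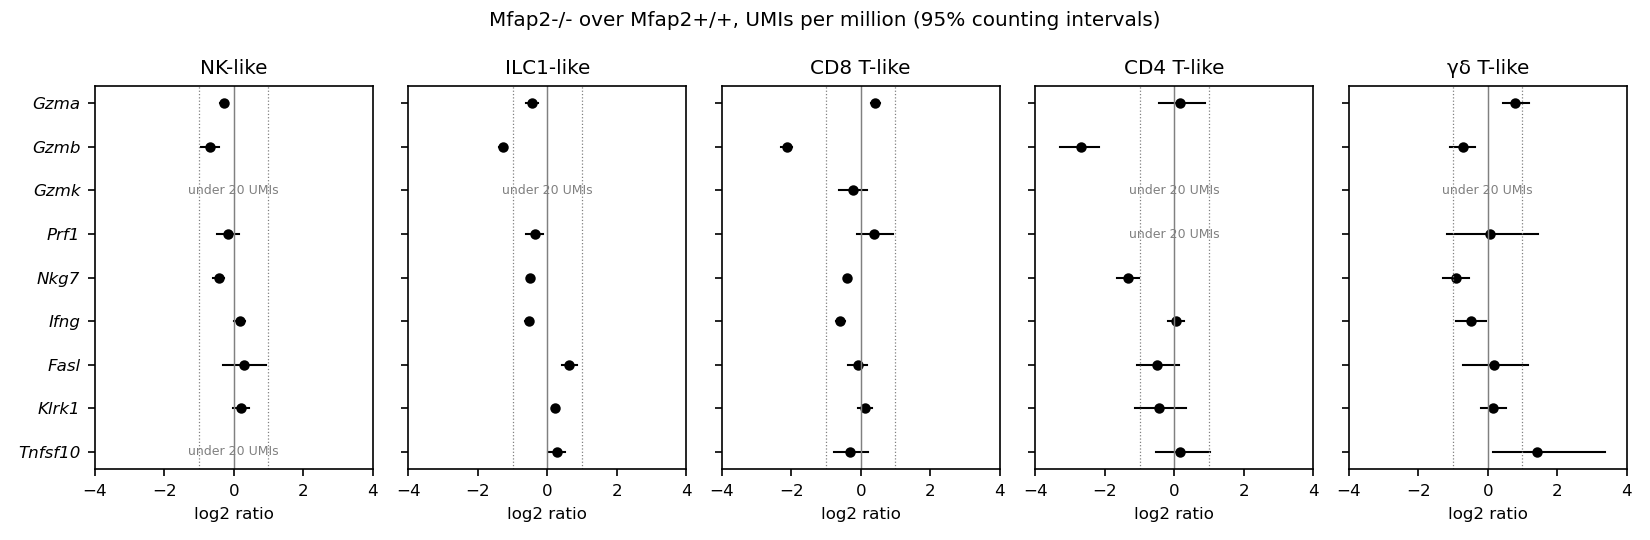
Log2 ratio of KO over WT CPM (horizontal axis) for each gene in 5 lymphocyte classes, with 95% counting intervals (bars), 0 (solid line) and 2-fold (dotted lines). Genes under 20 UMIs in a class are marked as such. The Gzmb points lie between -2.70 in CD4 T-like and -0.68 in NK-like cells, all left of 0.

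Class sizes and class make-up also differed between the libraries. NK-like cells were 0.958% (0.779 to 1.16%) of WT and 0.613% (0.478 to 0.773%) of KO cells, and ILC1-like cells 5.68% (5.24 to 6.14%) and 3.08% (2.77 to 3.41%). CD8 T-like cells were 3.08% (2.75 to 3.43%) and 3.75% (3.40 to 4.11%), CD4 T-like cells 1.44% (1.22 to 1.69%) and 2.70% (2.41 to 3.01%), and gamma-delta T-like cells 0.503% (0.376 to 0.659%) and 0.551% (0.424 to 0.705%). NK-like and ILC1-like cells were thus the smaller share, and CD4 T-like cells the larger share, in the KO library. With the libraries clustered separately the log2 ratio of the NK-like share was 0.32, against -0.64, so its direction depended on the clustering. The ILC1-like sub-cluster led by Xcl1 and Ccl3 (number 0) was 44.3% of WT and 11.1% of KO ILC1-like cells. Among CD8 T-like cells, sub-cluster 8, led by Cd8a, Gzmk and Itga1, was 39.9% and 6.78%. Sub-cluster 13 was 6.92% and 19.4%, and its leading genes included Pdcd1 and Havcr2, genes of exhausted T cells. They also included the T-cell receptor gamma genes Tcrg-C2 and Trgv2, which were among the leading genes of gamma-delta T-like sub-cluster 17 too. A cluster unequal between 2 single libraries may belong to the library, and sub-cluster values are given below where they differ from those of the class.

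Markers of other cell types were present in all 5 classes and differed between the libraries. Summed CPM ranged over the classes from 369 to 532 in WT and 92.8 to 123 in KO cells for 5 erythroid genes, with Slc4a1 at 0 in most classes. It ranged from 53.4 to 72.6 and 155 to 181 for 6 hepatocyte genes, with Cyp2e1 at 0 in 4 WT classes. For 12 macrophage genes it was 919 to 999 and 743 to 815, for 6 neutrophil genes 786 to 932 and 599.9 to 698, for 8 endothelial genes 222 to 314 and 268 to 435 and for 6 B-cell genes 25.3 to 42.6 and 34.0 to 73.2. Mitochondrial UMIs were 2.25 to 2.79% in WT and 2.12 to 2.47% in KO classes, and the median UMIs per cell were higher in each KO class. The part of these differences in the ratios below was not tested.

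**Figure D3:**
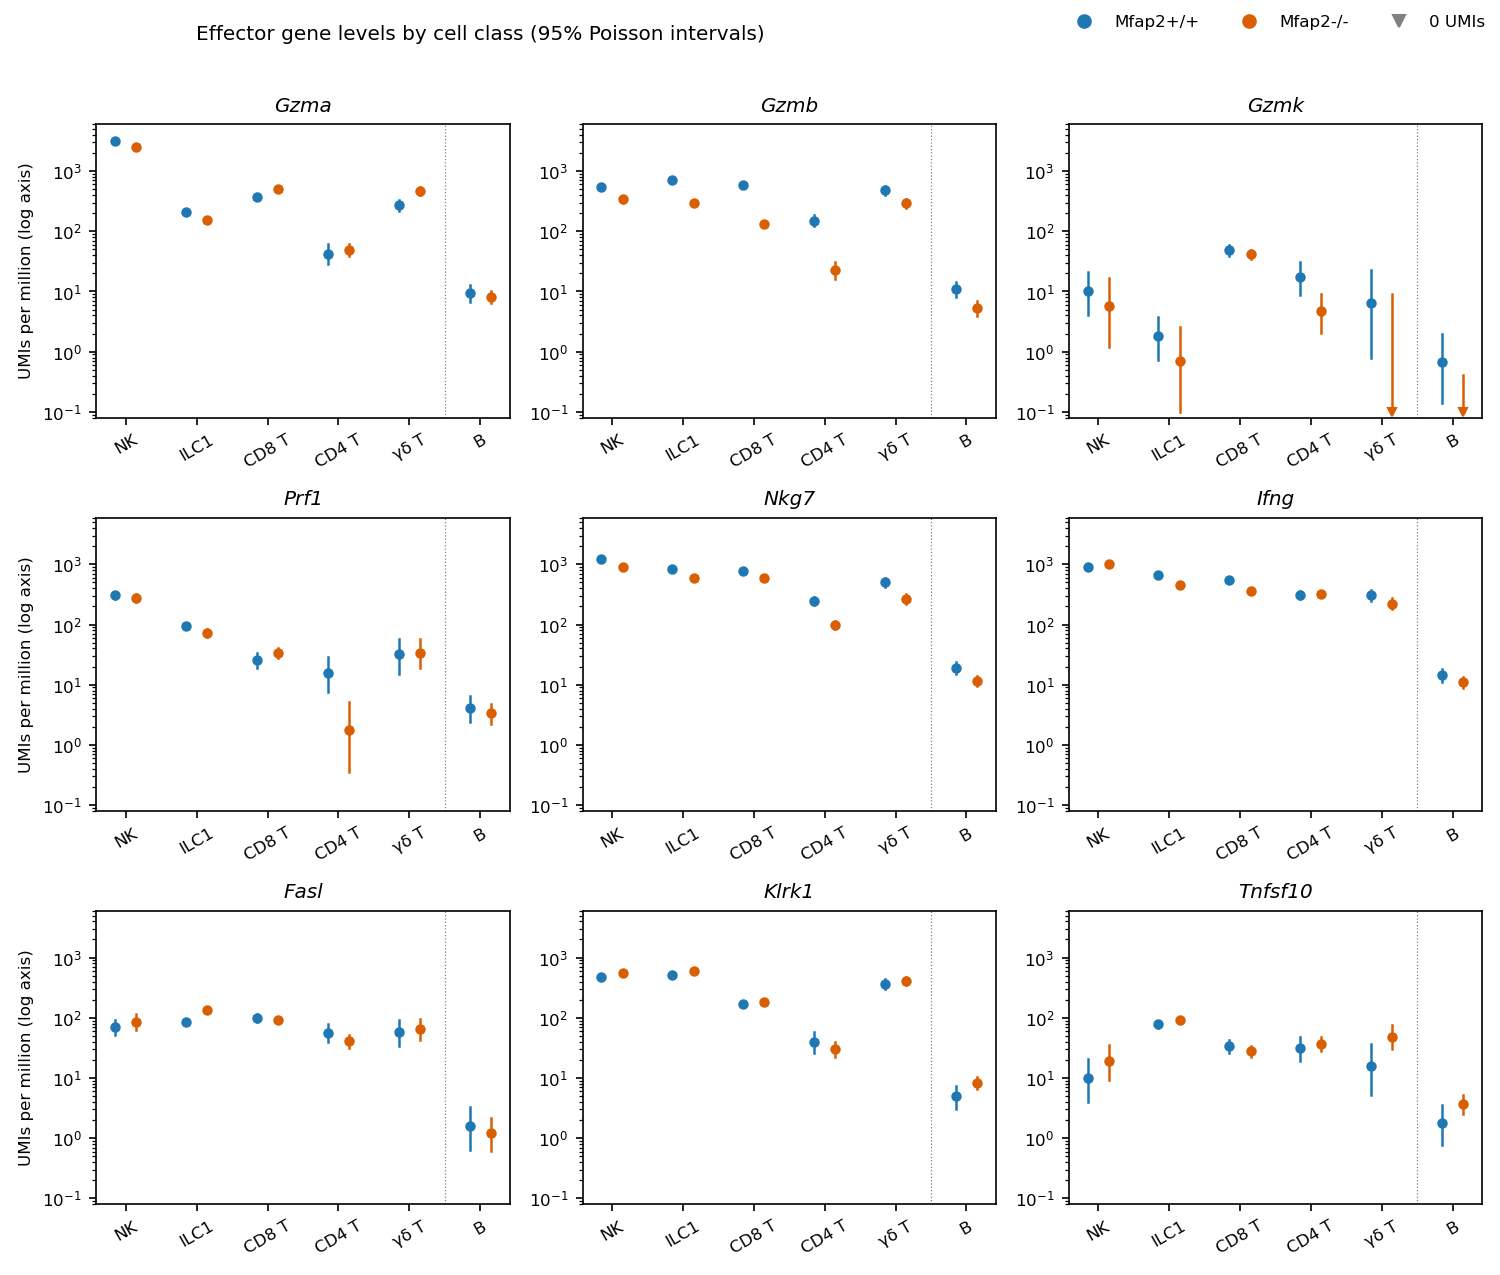
CPM (vertical log axis) of each gene in 5 lymphocyte classes and, right of the dotted line, in B-like cells as background, for the Mfap2+/+ and Mfap2-/- libraries, with exact Poisson 95% intervals (triangles: 0 UMIs). Gzma and Prf1 are highest in NK-like cells (3117 and 309 CPM in WT), and Gzmb is lower in the KO library in every class drawn.

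Gzma (granzyme A, a tryptase; mouse build GRCm38, chr13:113093825-113100981, minus strand) was highest in NK-like cells, at 3117 (2987 to 3251) CPM in WT and 2551 (2416 to 2691) in KO. CD8 T-like cells followed at 373 (346 to 402) and 501 (477 to 526), then gamma-delta T-like cells at 270.4 (216 to 334) and 471 (407 to 543). ILC1-like cells had 210.0 (196 to 225) and 155 (141 to 170.2), and CD4 T-like cells 42.6 (28.1 to 62.0) and 49.1 (39.1 to 60.7). The intervals of gamma-delta T-like and ILC1-like cells overlapped in WT, and those of CD8 T-like and gamma-delta T-like cells in KO. A Gzma UMI was found in 64.6% of WT and 70.0% of KO NK-like cells, against a background of 3.40% and 3.99% in B-like cells, whose median depth was 3377 and 4764 UMIs against 6804 and 7782.5 in NK-like cells. With every cell thinned to 1000 UMIs the shares were 52.5% and 59.4%, against 1.08% and 0.737%.

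The Gzma ratio went in different directions in different classes. It was -0.29 (-0.39 to -0.19) in NK-like, -0.44 (-0.61 to -0.27) in ILC1-like, 0.42 (0.30 to 0.56) in CD8 T-like, 0.17 (-0.44 to 0.89) in CD4 T-like and 0.79 (0.43 to 1.19) in gamma-delta T-like cells. The higher KO level in CD8 T-like cells stood against lower KO levels in sub-clusters 13 and 8, where the WT levels were highest. In sub-cluster 13 (Pdcd1, Havcr2), Gzma was 4438 CPM in WT and 2713 in KO, a ratio of -0.71 (-0.86 to -0.56). These levels stood above the 3117 and 2551 CPM of NK-like cells. In sub-cluster 8 (Itga1) the WT library had 203 UMIs, 352 CPM, and the KO library 2 UMIs, 14.8 CPM, with a ratio between -7.63 and -2.71. In sub-cluster 1 (Sidt1, Ly6c2) the KO level was the higher, 17.3 and 42.2 CPM. Sub-cluster 13 held the larger share of KO CD8 T-like cells, and with KO sub-clusters weighted to the WT mix the class ratio was -1.05, a weighting chosen after seeing the data. After thinning every cell to 1000 UMIs it was -0.020, so the direction in CD8 T-like cells was not stable.

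In ILC1-like cells the sub-clusters also went opposite ways for Gzma: -2.41 (-3.70 to -1.62) in sub-cluster 0, -0.88 (-1.27 to -0.51) in 2, 0.09 (-0.18 to 0.36) in 3 and 1.09 (0.40 to 1.93) in 16. Few cells carried much of the Gzma in the other classes. The 5 richest cells held 32.6% of the WT and 68.0% of the KO UMIs in ILC1-like cells, 85.2% and 84.5% in CD4 T-like cells and all of the WT and 85.0% of the KO UMIs in gamma-delta T-like cells. In NK-like cells they held 27.2% and 23.8%. Over the alternative settings the Gzma ratio ran from -1.49 to -0.45 in ILC1-like and from -0.68 to 1.23 in CD4 T-like cells.

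Gzmb (granzyme B, which cleaves after aspartate and activates caspases; chr14:56258838-56262260, minus strand) was lower in the KO library in each of the 5 classes. The 250 bases before its RefSeq start (GRCm38.p6, chr14:56262335-56262584, minus strand, 5′ to 3′) are shown because Gzmb and Nkg7 were the pair lower in every class. The GENCODE start, at 56262260, lies downstream of this window, and the bases between were not searched. Capitals mark the core letters TGTGGT, or ACCACA on the other strand, that RUNX factors are known to bind; Runx3 is a regulator of cytotoxic lymphocytes.
Gzmb promoter: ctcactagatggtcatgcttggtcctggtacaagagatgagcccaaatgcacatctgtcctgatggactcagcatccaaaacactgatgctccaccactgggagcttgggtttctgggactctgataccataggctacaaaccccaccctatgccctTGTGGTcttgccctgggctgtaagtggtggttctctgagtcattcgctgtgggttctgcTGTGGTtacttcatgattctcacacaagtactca
The core occurs 2 times in this window and in the same window of 5 of the 9 genes (Gzma, Gzmb, Prf1, Nkg7 and Klrk1), against 14.0% of 32851 RefSeq promoters. The T-box core GGTGTGA, or TCACACC, searched because T-bet and Eomes act in these cells, occurs in 2 of the 9 (Gzmk and Nkg7), against 3.33% of promoters. The Nkg7 match lies past the GENCODE start, inside the annotated transcript, and so outside the Nkg7 bases shown further on. The Gzmk window (chr13:113180966-113181215, minus strand) also lies past the GENCODE start, inside the annotated gene body. The searched letters of the RUNX and T-box cores do not overlap each other in these windows, and a match describes letters only.

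Among the 5 classes of the WT library Gzmb was highest in ILC1-like cells, at 709 (682 to 736) CPM, followed by CD8 T-like cells at 588 (554 to 624). NK-like cells had 542 (489 to 600.0), gamma-delta T-like cells 480.4 (407 to 563) and CD4 T-like cells 149.9 (121 to 183). In the KO library the order was NK-like at 338 (290.5 to 392), ILC1-like at 292 (272 to 312), gamma-delta T-like at 291 (241 to 348), CD8 T-like at 134 (122 to 148) and CD4 T-like at 22.8 (16.2 to 31.1). The intervals of CD8 T-like, NK-like and gamma-delta T-like cells overlapped in sequence in WT, and those of NK-like, ILC1-like and gamma-delta T-like cells in KO. The KO level was 2.43-fold lower in ILC1-like, 4.37-fold lower in CD8 T-like and 6.48-fold lower in CD4 T-like cells. The log2 ratios there were -1.28 (-1.39 to -1.17), -2.13 (-2.29 to -1.97) and -2.70 (-3.29 to -2.17). They were nearer 0 in NK-like cells, -0.68 (-0.95 to -0.42), and gamma-delta T-like cells, -0.72 (-1.08 to -0.37). The CD4 T-like values rest on 95 WT and 39 KO UMIs, of which the 5 richest cells held 57.9% and 66.7%. In gamma-delta T-like cells they held 59.6% and 73.1%, and in NK-like cells 35.4% and 41.0%. The 5 richest cells held 16.1% and 20.9% in CD8 T-like cells and 6.91% and 15.4% in ILC1-like cells. Over the alternatives Gzmb ran from -1.34 to -0.38 in NK-like cells, past 2-fold with no doublets removed, and from -1.49 to 0.74 in gamma-delta T-like cells.

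The Gzmb difference was found inside most sub-clusters, which all come from the same 2 libraries. No share over all genes is given beside the counts of sub-clusters here and below. Of 15 sub-clusters with 20 UMIs, 14 had a ratio below 0 and 13 an interval below 0. The 1 above was ILC1-like sub-cluster 16, led by Ncr1 and Clnk, at 0.08 (-0.45 to 0.63). It held 26 WT and 23 KO cells, with median depths of 2482.5 and 4926 UMIs. Cd3e, a T-cell gene, was found in 20.4% of its cells, against 2.01 to 5.48% in sub-clusters 0, 2 and 3. The 3 largest ILC1-like sub-clusters, number 0 (Xcl1), number 2 (the interferon-induced genes Ifit3 and Ifit1) and number 3 (Zmat4), had -2.09 (-2.67 to -1.64), -1.31 (-1.52 to -1.10) and -1.34 (-1.51 to -1.17). In CD8 T-like sub-cluster 8 Gzmb was 1449.6 CPM in WT and 229 in KO, and in sub-cluster 13 it was 1730.2 and 558. Their ratios were -2.62 (-3.23 to -2.15) and -1.64 (-1.90 to -1.36). Their WT levels stood above those of every ILC1-like sub-cluster, the highest of which was 904 CPM in WT sub-cluster 18. In the CD4 T-like sub-cluster with Foxp3 and Il1rl1 (number 10), genes of tissue regulatory T cells, the ratio was -3.84 (-5.09 to -2.98), from 61 WT and 10 KO UMIs. Cycling T-like cells had 319 and 148 UMIs, a ratio of -1.99 (-2.29 to -1.71).

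A Gzmb UMI was found in 72.4% (68.6 to 76.0%) of WT and 50.3% (44.9 to 55.6%) of KO ILC1-like cells and in 46.5% (41.0 to 52.2%) and 24.1% (20.1 to 28.4%) of CD8 T-like cells. After thinning to 1000 UMIs per cell these shares were 40.7% and 17.7%, and 30.4% and 8.67%. B-like cells, which are not known as a main source of Gzmb, had 3.73% and 2.50% before and 1.33% and 0.510% after thinning. The level outside the lymphocytes was also lower in the KO library: 10.8 (7.97 to 14.3) and 5.23 (3.84 to 6.95) CPM in B-like cells, and ratios below 0 in 9 of 9 named classes outside the lymphocytes that had 20 UMIs. With the CPM of B-like cells taken off, as with the other alternatives, the ratio ran from -1.53 to -1.20 in ILC1-like, from -2.25 to -1.93 in CD8 T-like and from -3.01 to -2.44 in CD4 T-like cells.

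Prf1 (perforin; chr10:61297833-61304680, plus strand) had its highest level in NK-like cells, at 309 (269 to 353) CPM in WT and 276 (233 to 324) in KO. ILC1-like cells had 93.0 (83.6 to 103) and 72.2 (62.6 to 82.8), and CD8 T-like cells 25.9 (19.1 to 34.3) and 34.3 (28.2 to 41.3). Among the 5 classes perforin, like Gzma, was highest in NK-like cells in both libraries. By sub-cluster, CD8 T-like number 13 had more Gzma than NK-like cells. Gamma-delta T-like cells had 10 and 14 UMIs, 31.8 and 34.2 CPM, and CD4 T-like cells 10 and 3 UMIs. The intervals of CD8 T-like and gamma-delta T-like cells overlapped in both libraries. The ratio was -0.36 (-0.62 to -0.11) in ILC1-like cells, and intervals spanned 0 in NK-like cells, -0.16 (-0.48 to 0.15), CD8 T-like cells, 0.39 (-0.09 to 0.93), and gamma-delta T-like cells, 0.07 (-1.17 to 1.43). In ILC1-like sub-clusters 0, 2 and 3 it was -0.97 (-2.27 to -0.15), -0.37 (-0.85 to 0.10) and -0.40 (-0.79 to -0.02). At 1000 UMIs a Prf1 UMI was found in 19.2% and 20.3% of NK-like cells, against 3 of 1202 and 5 of 1764 B-like cells.

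Nkg7, a membrane protein of cytotoxic granules known to act in their release (chr7:43437073-43438249, plus strand), was found in most NK-like, ILC1-like and CD8 T-like cells. The 185 bases before its first annotated start (GRCm38.p6, chr7:43436888-43437072, plus strand, 5′ to 3′) are shown with the RUNX core in capitals, as for Gzmb.
Nkg7 promoter: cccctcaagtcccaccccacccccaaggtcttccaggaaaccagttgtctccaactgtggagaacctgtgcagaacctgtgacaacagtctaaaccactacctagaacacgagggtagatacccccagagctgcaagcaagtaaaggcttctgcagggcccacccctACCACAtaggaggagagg
The core occurs 1 time here, on the strand opposite to the gene, and 10.7% of the RefSeq windows of this length hold it. Nkg7 UMIs were found in 91.9% and 94.3% of NK-like, 95.4% and 91.5% of ILC1-like and 87.1% and 78.0% of CD8 T-like cells, against 6.16% and 5.66% of B-like cells.

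Nkg7 reached 1206 (1126 to 1290.5) CPM in WT and 892 (813 to 976) in KO NK-like cells. CD8 T-like sub-cluster 13 had more, 1664 and 1510 CPM. ILC1-like cells had 822 (793 to 851) and 587 (559 to 616), and CD8 T-like cells 778 (739 to 819) and 594 (568 to 622). Gamma-delta T-like cells had 499.5 (424 to 584) and 266 (219 to 321), and CD4 T-like cells 249 (212 to 291) and 98.7 (84.4 to 115). The intervals of ILC1-like and CD8 T-like cells overlapped in both libraries. The ratios were small and of similar size in NK-like, -0.43 (-0.60 to -0.27), ILC1-like, -0.48 (-0.57 to -0.40), and CD8 T-like cells, -0.39 (-0.49 to -0.29). They were further from 0 in gamma-delta T-like cells, -0.90 (-1.27 to -0.55), and in CD4 T-like cells, -1.34 (-1.66 to -1.01), where clustering each library separately gave -0.77, no longer 2-fold. Of 18 sub-clusters 17 were below 0, 14 of them with the interval. Outside the lymphocytes 9 of 11 named classes were below 0 as well.

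Gzmk (granzyme K, a tryptase of memory and exhausted-like CD8 T cells; chr13:113171608-113225908, minus strand) was sparse. CD8 T-like cells had 90 WT and 133 KO UMIs, 48.5 (39.0 to 59.6) and 41.4 (34.7 to 49.1) CPM, with a ratio of -0.23 (-0.62 to 0.18). It lay in sub-clusters 13, at 291 and 191 CPM, and 8, at 95.5 and 88.6. In sub-cluster 1, with Sidt1 and Ly6c2, it was 4.61 and 7.95, and in sub-cluster 5, with the naive T-cell genes Lef1 and Ccr7, no UMI was found in either library. Sub-clusters 13 and 8 thus held most Gzmk UMIs of these cells in both libraries, and in each the interval of the ratio held 0, -0.64 (-1.20 to 0.01) and -0.02 (-1.14 to 0.81). NK-like cells had 7 and 3 UMIs, ILC1-like cells 7 and 2, CD4 T-like cells 11 and 8 and gamma-delta T-like cells 2 and 0. B-like cells had 3 and 0.

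**Figure D4:**
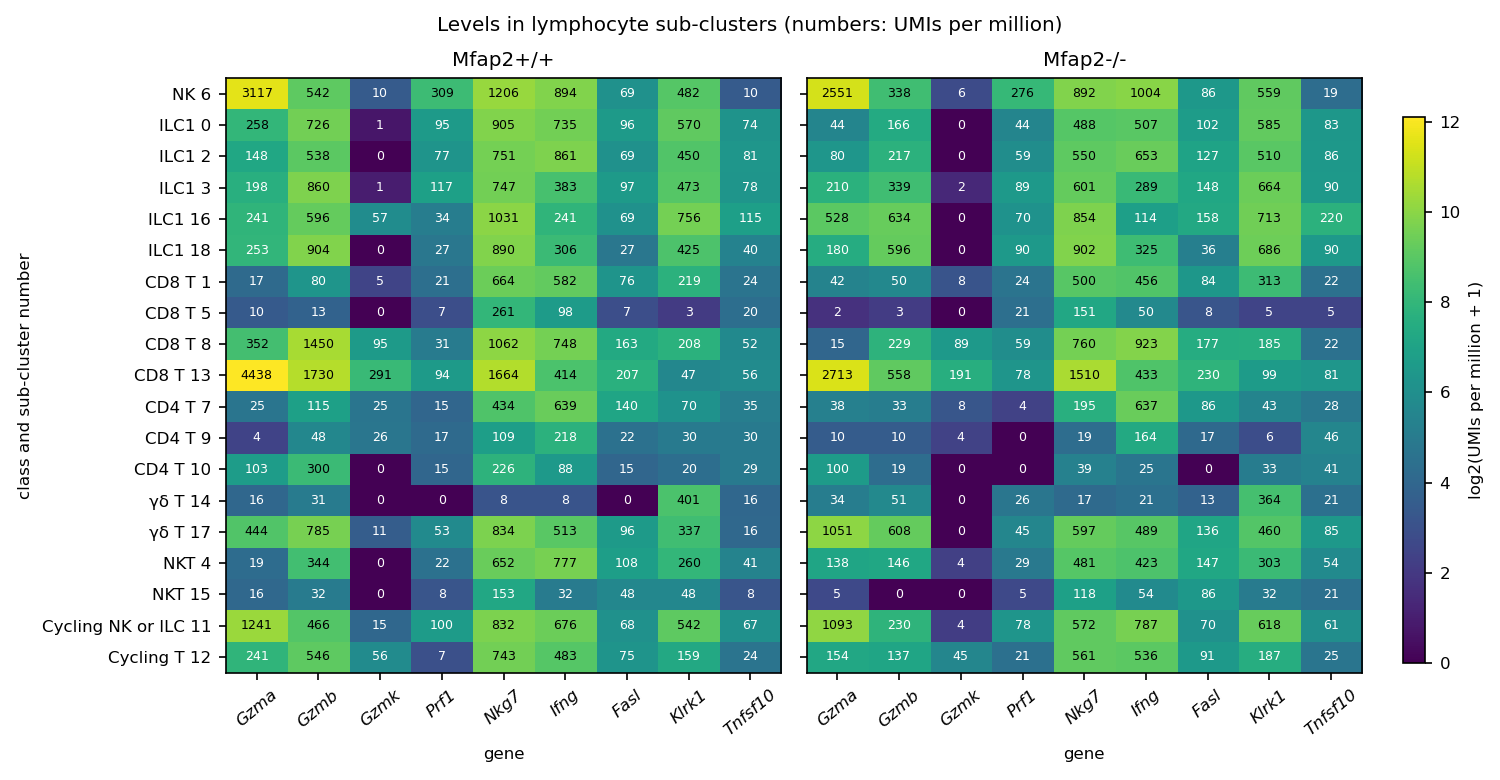
CPM (printed numbers; colour: log2 of CPM + 1) of each gene (columns) in the lymphocyte sub-clusters (rows, class and number), WT left and KO right. CD8 T-like sub-cluster 13 has Gzma at 4438 and 2713 and Gzmk at 291 and 191 CPM, and gamma-delta T-like sub-cluster 14 has Klrk1 but little else.

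Ifng (interferon gamma; chr10:118441046-118445892, plus strand) shares 336 exon bases with the GENCODE entry Gm49751 on the same strand, so its counts are uncertain to that extent. NK-like cells had 894 (825 to 968) CPM in WT and 1004 (919.9 to 1093) in KO, ILC1-like cells 658 (632 to 684) and 453 (429 to 479), and CD8 T-like cells 544 (511 to 579) and 361 (341 to 383). CD4 T-like cells had 309 (267 to 356) and 320.1 (294 to 348), and gamma-delta T-like cells 309 (250.3 to 376) and 222 (179 to 273). As neighbours, the CD4 T-like and gamma-delta T-like intervals overlapped in WT and the CD8 T-like and CD4 T-like intervals in KO. The ratio was below 0 in ILC1-like, -0.54 (-0.64 to -0.44), CD8 T-like, -0.59 (-0.71 to -0.47), and gamma-delta T-like cells, -0.47 (-0.90 to -0.05), and the interval held 0 in NK-like, 0.17 (-0.0037 to 0.34), and CD4 T-like cells, 0.04 (-0.19 to 0.29). In ILC1-like sub-clusters 0, 2 and 3 the Ifng ratio was -0.52 (-0.84 to -0.25), -0.40 (-0.54 to -0.26) and -0.41 (-0.62 to -0.20). The CD8 T-like sub-clusters differed: sub-clusters 1 and 5 had -0.35 (-0.52 to -0.19) and -0.97 (-1.66 to -0.24). Sub-clusters 8 and 13 had 0.31 (0.0036 to 0.59) and 0.04 (-0.40 to 0.56). Over the alternative settings the class ratio ran from -0.73 to -0.03. The value of -0.03 came from weighting KO sub-clusters to the WT mix, a weighting chosen after seeing the data. The part of class make-up in this ratio was not tested further. NKT-like sub-cluster 4, led by Il4 and Zbtb16, had 777 and 423 CPM, a ratio of -0.87 (-1.10 to -0.66). An Ifng UMI was found in 84.8% and 87.1% of NK-like and 4.94% and 5.05% of B-like cells.

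Fasl (chr1:161780689-161788495, minus strand) was 86.5 (77.5 to 96.3) CPM in WT and 134 (121 to 148) in KO ILC1-like cells, a ratio of 0.63 (0.42 to 0.85). It was higher in KO sub-clusters 2 and 3, 0.87 (0.47 to 1.29) and 0.60 (0.25 to 0.98), and at 0.16 (-0.64 to 0.76) in sub-cluster 0. CD8 T-like cells had 99.1 (85.3 to 115) and 93.2 (82.9 to 104), NK-like cells 69.2 (51.0 to 91.8) and 85.5 (62.4 to 114), gamma-delta T-like cells 57.3 (33.9 to 90.5) and 65.9 (43.4 to 95.9) and CD4 T-like cells 56.8 (39.8 to 78.6) and 40.9 (31.9 to 51.7). In these 4 classes the intervals of the ratio held 0, from -0.49 in CD4 T-like to 0.31 in NK-like cells. In WT, levels of neighbouring classes overlapped throughout. Of 14 sub-clusters 13 had a ratio above 0, 3 with the interval. The median ratios over all genes in the 5 classes were also above 0, from 0.02 to 0.16. In B-like cells Fasl was at 1.58 and 1.22 CPM.

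Tnfsf10 (TRAIL; chr3:27317028-27342427, plus strand) was highest in ILC1-like cells among the 5 classes: 77.4 (68.8 to 86.7) CPM in WT and 93.1 (82.2 to 105) in KO ILC1-like cells against 10.1 (4.06 to 20.8) and 19.0 (9.12 to 35.0) in NK-like cells. TRAIL is a known surface marker of liver ILC1. CD8 T-like cells had 33.9 (26.1 to 43.4) and 27.7 (22.3 to 34.1), and CD4 T-like cells 31.6 (19.3 to 48.7) and 36.8 (28.3 to 47.1), with overlapping intervals. Gamma-delta T-like cells had 5 and 20 UMIs, 15.9 (5.17 to 37.1) and 48.8 (29.8 to 75.4) CPM. The ratio there was 1.43 (0.16 to 3.39), but 5 cells held all of the WT and 80.0% of the KO UMIs. In ILC1-like cells the ratio was 0.27 (0.02 to 0.51). Endothelial-like cells reached 61.3 (55.3 to 67.8) and 70.4 (65.7 to 75.4) CPM, with a UMI in 24.3% and 30.9% of cells, against 0.648% and 1.83% of B-like cells. The endothelial-like cluster led by Selp and Rspo3 had 61.0 (49.9 to 74.0) and 112 (98.0 to 127) CPM, while the cluster led by Esm1, Stab2 and Lyve1 had 61.0 (53.4 to 69.5) and 59.5 (54.4 to 64.9).

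Klrk1, the activating receptor NKG2D (chr6:129610323-129623864, minus strand), was highest in ILC1-like cells, at 511 (489 to 534) CPM in WT and 595 (567 to 624) in KO, and NK-like cells, at 482 (431 to 536) and 559 (497 to 627), with overlapping intervals. Gamma-delta T-like cells had 363 (299 to 436) and 405 (346 to 472), CD8 T-like cells 170.2 (152 to 190.0) and 186 (171 to 201) and CD4 T-like cells 39.4 (25.5 to 58.2) and 29.8 (22.2 to 39.2). No class reached a 2-fold difference. The ratio was 0.22 (0.12 to 0.31) in ILC1-like cells, and the other 4 intervals held 0, between -0.43 in CD4 T-like and 0.21 in NK-like cells. In ILC1-like sub-clusters 0, 2 and 3 it was 0.05 (-0.25 to 0.31), 0.18 (0.01 to 0.35) and 0.49 (0.33 to 0.65), and in CD8 T-like sub-cluster 1 0.51 (0.27 to 0.76). Its signal adaptor Hcst (DAP10), by contrast, was 425 and 275 CPM in ILC1-like cells, a ratio of -0.63 (-0.76 to -0.51), and -0.78 (-0.92 to -0.64) in CD8 T-like cells.

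Klrk1 was also present in dendritic cells. Type 1 dendritic-like cells had 408 and 763 UMIs, 183 (166 to 202) and 187 (174 to 201) CPM, and type 2 dendritic-like cells 90.6 (78.0 to 105) and 75.9 (69.0 to 83.2). These levels stood well above the 4.95 and 8.23 CPM of B-like cells. Plasmacytoid dendritic-like cells had 16 and 8 UMIs, 59.4 and 8.72 CPM, a ratio of -2.68 (-4.20 to -1.46). A UMI was found in 70.5% and 83.2% of type 1 dendritic-like cells, whose median depths were 15860 and 22681 UMIs, and in 15.2% and 15.3% after thinning, against 0.333% and 0.794% of B-like cells. In the same cells Prf1 had 3 and 2 UMIs and Gzmb 28 and 13, or 12.6 and 3.19 CPM of Gzmb, near the medians of 11.5 and 3.19 CPM over the 13 named classes outside the lymphocytes.

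The gamma-delta T-like cells fell into 2 sub-clusters. Sub-cluster 14, led by Il17a, Cd163l1 and Trdc (29 WT and 39 KO cells), had 401 and 364 CPM of Klrk1 but 1 and 4 UMIs of Nkg7 and 1 and 5 of Ifng. Gamma-delta T cells with Il17a are known for interleukin-17 rather than for killing. Sub-cluster 17, led by Klra1, Klra7 and Trdc (23 and 24 cells), had 834 and 597 CPM of Nkg7, 785 and 608 of Gzmb and 444 and 1051 of Gzma. In sub-cluster 17 Gzma was higher in KO, 1.24 (0.86 to 1.64), and Nkg7 lower, -0.48 (-0.85 to -0.12). With no doublets removed the class ratios of Gzmb, Nkg7 and Ifng were above 0, at 0.74, 0.68 and 0.94, and after thinning that of Gzmb was 0.50.

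In NK-like and CD8 T-like cells a Gzmb UMI was more frequent in cells with Gzma than in cells without it. With all cells at 1000 UMIs, 30 of 52 WT NK-like cells with Gzma also had Gzmb (57.7%), against 8.51% of those without Gzma. In KO they were 17 of 41 (41.5%), against 10.7%. CD8 T-like cells had 24 of 34 in WT and 18 of 47 in KO, against 25.4% and 4.89% of cells without Gzma. ILC1-like cells had 29 of 50 in WT, against 39.0% of cells without Gzma, and 3 of 16 in KO, against 17.6%. With all UMIs the KO shares were 66.7% and 47.7%. These shares describe cells of 1 library each.

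Outside the lymphocytes Gzmk was highest in endothelial-like cells. Endothelial-like cells held 16.9% of the WT and 23.5% of the KO Gzmk UMIs, 39 and 72, nearly all in the cluster led by Esm1 (38 and 71). The Gzmk gene body overlaps that of Esm1, an endothelial gene on the opposite strand, with no shared exon base. Of the WT endothelial-like cells with Gzmk 25 of 28 also had Esm1 (89.3%), while 20.3% of all endothelial-like cells had it. In KO they were 40 of 58 (69.0%), against 17.1%. Whether the counting used strand is not given in the sources used here, so reads from Gzmk and from its antisense partner cannot be told apart and the endothelial Gzmk values are uncertain.

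Nkg7 had a further place outside the lymphocytes. The unnamed cluster led by Elane, Mpo and Ctsg, granule genes of neutrophil precursors, had 596 and 290 Nkg7 UMIs, 323 (298 to 350.1) and 130.3 (116 to 146) CPM. In the 13 named classes outside the lymphocytes the median Nkg7 level was 20.2 and 13.7 CPM.

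Other genes of the cytotoxic pathway, in lists chosen with earlier results of these data known, gave few 2-fold differences in NK-like cells. Over all genes there, 4.92% were higher and 2.13% lower by 2-fold. Of 19 granule machinery genes 12 had 20 UMIs, 1 was higher in KO by 2-fold (Unc13d, a priming factor of granule release, 1.47 (0.35 to 2.87)) and 0 lower, with a median of 0.01. Serpinb9, an inhibitor that protects cells from granzyme B, was 378 CPM in WT and 696 in KO, 0.88 (0.65 to 1.11), and Lyst, which sizes lytic granules, 0.72 (0.31 to 1.14). Lamp1 and Rab27a were lowest among list genes with 50 UMIs, -0.32 (-0.85 to 0.17) and -0.32 (-1.08 to 0.38). Serpinb9 was higher in KO ILC1-like cells too, 0.41 (0.31 to 0.52), and lower in KO CD8 T-like cells, -0.72 (-0.97 to -0.47). Gzmc, a granzyme of ILC1, was 749 and 465 CPM in ILC1-like cells, -0.69 (-0.78 to -0.59). In those cells 0 of 13 genes of this list passed 2-fold, against 5.31% of all genes in either direction. In CD4 T-like and gamma-delta T-like cells the 1 gene lower by 2-fold was Cst7, an inhibitor of granule cathepsins, -1.82 (-2.64 to -1.04) and -1.51 (-2.82 to -0.46).

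Of 18 receptors and adaptors with 20 UMIs in NK-like cells 0 passed 2-fold, with a median of 0.09. Of all genes there, 7.05% passed in either direction. The adaptors Hcst and Tyrobp were lowest, -0.60 (-0.93 to -0.28) and -0.59 (-0.74 to -0.44), and Cd226 and Il12rb2, a subunit of the interleukin-12 receptor, highest, 0.75 (0.15 to 1.36) and 0.68 (0.52 to 0.84). In ILC1-like cells 1 of 18 was lower by 2-fold, Il12rb1, -1.10 (-1.95 to -0.39), against 1.55% of all genes lower. Of 10 transcription factors in NK-like cells 0 passed, against the same 7.05% of all genes, with a median of 0.15. Runx3 and Id2 were lowest, -0.36 (-0.62 to -0.10) and -0.35 (-0.60 to -0.11), and Zeb2 and Nfil3 highest, 0.42 (0.19 to 0.65) and 0.78 (0.22 to 1.35). Tbx21, which encodes the factor T-bet, was 0.10 (-0.23 to 0.42) in NK-like, 0.20 (0.09 to 0.32) in ILC1-like, -0.41 (-0.61 to -0.22) in CD8 T-like, 0.06 (-0.37 to 0.54) in CD4 T-like and 0.40 (-0.07 to 0.91) in gamma-delta T-like cells. Among ligands, receptors and cytokines that act with the 9 genes, 1 of 5 was higher by 2-fold in KO NK-like cells. It was the NKG2D ligand gene Raet1e, 1.07 (0.64 to 1.52), against 4.92% of all genes higher. Fas and Ifngr1, receptors for Fas ligand and interferon gamma, were 0.83 (0.28 to 1.40) and 0.52 (0.33 to 0.70) in NK-like cells.

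In the other classes the list genes past 2-fold were mostly lower in KO. In CD8 T-like cells the counts were 0 higher and 1 lower of 14 granule machinery genes. For 18 receptors and adaptors they were 0 higher and 2 lower. For 10 transcription factors they were 0 and 0, and for 9 ligands, receptors and cytokines 0 and 1. The list genes lower were Gzmc, Ncr1, Klrb1c and Il18. Of all genes there, 1.63% were lower and 4.01% higher. In CD4 T-like cells the counts were 0 higher and 1 lower of 12 and 0 higher and 1 lower of 14, in the same order. They went on with 0 higher and 0 lower of 10 and 1 higher and 1 lower of 8. Of all genes there, 2.98% were lower and 4.7% higher. The lower genes were Cst7, Klrd1 and Il18 and the higher 1 was Il15ra. In gamma-delta T-like cells the counts were 0 higher and 1 lower of 10 and 0 higher and 3 lower of 16. They were 0 higher and 0 lower of 9 and of 5, where 2.99% of all genes were lower and 6.12% higher. The 3 receptors and adaptors were Tyrobp, Ncr1 and Klrb1c. ILC1-like cells had 1 higher and 0 lower of 11 transcription factors, the 1 being Eomes, and 0 higher and 0 lower of 9 ligands, receptors and cytokines. Of all genes in these cells, 3.76% were higher and 1.55% lower.

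Genes whose levels over cell classes were most like those of each effector were taken by Pearson correlation of log2(CPM + 1) over 42 points, 21 classes in each of 2 libraries, which share library, depth and free RNA. They were Klre1, Klra7, Samd3, Txk and Klrc1 for Gzma (r 0.891 to 0.920), Sh2d2a, Sytl3, Ccl5, Xcl1 and Klrc2 for Gzmb (r 0.906 to 0.934), Klrb1c, Samd3, Klre1, Txk and Xcl1 for Prf1 (r 0.889 to 0.911) and Txk, Gm2682, Ctsw, Il2rb and Ms4a4b for Nkg7 (r 0.961 to 0.969). For the ligands and cytokine they were Sh2d2a, Thy1, Sytl3, Klrc2 and Zap70 for Ifng (r 0.931 to 0.967), Thy1, Sytl3, Sh2d2a and Camk4 for Fasl (r 0.956 to 0.961) and Rasa1, Ppp1cc, Gbp4, Ndfip1 and Yes1 for Tnfsf10 (r 0.790 to 0.802). The remaining lists were Arsb, Klre1, Klrd1, Clnk and Klrc1 for Klrk1 (r 0.885 to 0.918) and Eomes, Reps1, Sh2d1a, Trac and Tcf7 for Gzmk (r 0.718 to 0.769). The correlations were weakest for Gzmk and Tnfsf10, the genes with a large share of UMIs in endothelial-like cells.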

How the data were processed

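Raw UMI counts per gene and barcode were deposited; per the file headers they were made with Cell Ranger 7.0.1, while the submitters' processing notes name Cell Ranger 3.1.0, Seurat and mm10. Chromium 3′ v3 chemistry is given per the labels' protocols. The annotation, the use of strand and of intronic reads are not given in the sources used here. The lowest total per barcode was 500 UMIs in both libraries. The 9 genes and all gene lists were chosen with earlier results of these data known.

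Barcodes under 200 genes or over 20% mitochondrial UMIs were dropped, leaving 11370 WT and 12723 KO, and the 1034 and 1295 with the highest Scrublet scores (0.8% per 1000 cells) were removed, since the automatic threshold marked 7 and 782. Cells of both libraries were clustered with scanpy 1.11.5 and leidenalg 0.10.2 (30 components, 15 neighbours, resolution 1), and lymphocytes again at resolution 1.5, each time without the 9 genes. A cluster could take a name when at least 3 fixed markers were raised 2-fold in at least 10% of its cells. It stayed unnamed when its leading genes held more markers of another type, or at least 3 genes of granulocyte-monocyte progenitors. The same held when no leading gene was a marker of the type and depth was far below the library median. Where several lymphocyte names were possible, the one whose defining gene was found in the largest share of cells was taken, a rule set after the clusters were seen. NKT-like sub-cluster 15 had more gamma-delta than NKT markers among its leading genes, so NKT-like cells are given by sub-cluster. Differences from other analyses may come from these rebuilt names.

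UMIs were summed per class and library. Intervals are exact Poisson for CPM, Clopper-Pearson for shares and exact conditional for ratios. Counts over all genes take those that reach 20 UMIs in a class, WT and KO summed; medians of the list use all 9. Thinning to 1000 UMIs leaves out shallower cells, 14 WT and 13 KO ILC1-like, 0 and 1 NK-like, 5 and 13 CD8 T-like, 32 and 39 B-like and 1 and 2 type 1 dendritic-like. The interval and ratio scripts were tested on simulated data. Positions and overlaps are from GENCODE M21 (GRCm38), which holds 32235 (99.8%) of the identifiers. Promoters are those of RefSeq on GRCm38.p6, matched for all 9 genes; the Nkg7 window ends before both the RefSeq and the GENCODE start. Named genes are the 9, the 2 highest and 2 lowest NK-like ratios of each list among genes with at least 50 UMIs, and the 5 genes most like each effector by profile among those reaching 100 CPM; further list genes (Unc13d, Gzmc, Cst7, Il12rb1, Tbx21 and the values of list genes in other classes) were chosen after their values were seen. For Fasl 4 of the 5 are given; 1 gene is not reported here.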

Additional observations from a re-analysis of the deposited data

How the results depend on the processing

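Results were recomputed with no doublets removed, stricter cell filters, the 9 genes kept in clustering, separate clustering of the libraries, other sub-cluster resolutions, classes from marker UMIs per cell, scaling by the median of ratios, means of per-cell CPM, thinning, B-like CPM taken off and the 5 richest cells left out; weighting KO sub-clusters to the WT mix was added after seeing the data. Of the recomputed class ratios of single genes 407 stayed within their interval and 75 moved outside it; 10 more changed sign where the interval had lacked 0. The median over the 9 genes stayed within its interval in 56 cases; it moved in NK-like cells to -0.83 with no doublets removed and -0.62 with separate clustering, and in CD4 T-like cells to -1.08 with classes from marker UMIs. The log2 ratio of the NK-like share was 0.32 with separate clustering, against -0.64. Scaling by the median of ratios shifted all genes down by 0.11 in NK-like, 0.15 in ILC1-like, 0.10 in CD8 T-like, 0.06 in CD4 T-like, 0.12 in gamma-delta T-like cells (log2), and no ratio whose interval lacked 0 changed sign with it.

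Among ratios whose interval lacked 0, these changed sign. In gamma-delta T-like cells, with no doublets removed, Gzmb was at 0.74, Nkg7 at 0.68 and Ifng at 0.94; Ifng was at 0.010 with the genes kept in clustering, 0.083 with classes from marker UMIs and 0.096 with means of per-cell CPM; and Gzmb was at 0.50 after thinning. Gzma was at 0.039 in NK-like cells with classes from marker UMIs, and in CD8 T-like cells at -0.020 after thinning and -1.05 with the WT mix. For each the cause was not tested. Ratios whose interval held 0 changed sign as well: Ifng ran from -0.61 to 0.22, Klrk1 from -0.21 to 0.28 and Prf1 from -0.90 to 0.04 in NK-like cells, Gzma from -0.68 to 1.23 and Tnfsf10 from -0.29 to 0.54 in CD4 T-like cells, Fasl from -0.61 to 0.14 in CD8 T-like cells and Prf1 from -1.28 to 1.68 in gamma-delta T-like cells, among others. Clustered separately, no cluster was named gamma-delta T-like, so that alternative gave no value. Gzmb stayed lower in KO in all alternatives run in the NK-like, ILC1-like, CD8 T-like and CD4 T-like classes.

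No paired analysis was possible because each genotype has 1 library. Depth limits Gzmk, which had under 20 UMIs in 4 of 5 classes, and Prf1 in CD4 T-like cells.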
